A study of Mus musculus with 2 samples.

Results

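Zbtb16, Zbtb7b, Gata3, Il4 and Il13 were followed as 5 of the 27998 genes counted in 2 single-cell RNA libraries of mouse γδ T cells, 1 hepatic and 1 thymic. They were chosen by their UMI levels: an earlier look at the same libraries had shown Il4, Zbtb16 and Zbtb7b to be high in a hepatic population, so the levels given here are a description with no test. Both libraries came from untreated wild-type C57BL/6J mice aged 8 weeks, with cells pooled from several animals and no label that ties a cell to an animal. Hepatic and thymic cells were sorted as CD3e+ TCRγδ+, and thymic suspensions had first been depleted of CD4+ and CD8+ cells with magnetic beads. With 1 library per tissue, tissue and library cannot be told apart, and every interval below is an exact 95% interval that covers counting error only.

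PLZF, the product of Zbtb16, is a BTB zinc finger factor that gives NKT cells and some γδ T cells an innate, preactivated program in which cytokines are released soon after stimulation. ThPOK, the product of Zbtb7b, is a related BTB zinc finger factor known for fixing the CD4 lineage in the thymus and for its part in NKT and γδ NKT cells. GATA3 is a zinc finger factor needed in early T cell development, and it later activates the type-2 cytokine locus. Il4 and Il13 are neighbouring genes in that locus, and their products drive IgE class switching, alternative macrophage activation and mucus production. γδ NKT cells are the γδ T cells in which PLZF, ThPOK and combined IL-4 and IFN-γ production have been described.

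On the mm10 assembly Zbtb16 (ENSMUSG00000066687) lies at chr9:48651797-48836225, Zbtb7b (ENSMUSG00000028042) at chr3:89377644-89393673 and Gata3 (ENSMUSG00000015619) at chr2:9857078-9887953. Il4 (ENSMUSG00000000869) lies at chr11:53612460-53618665 and Il13 (ENSMUSG00000020383) at chr11:53631323-53634702, with 12657 bases between them and the same orientation, on the minus strand. The 250 bases upstream of the start of each cytokine gene are shown because both genes are read from this locus and carry the words bound by GATA3 or NFAT that are searched here. Capitals mark each match to GGAAAA, the core of an NFAT site. On the other strand that word reads TTTTCC in the printed sequence. In Il13, capitals also mark the match to a GATA site, AGATAA. The sequences are RefSeq, GRCm38.p6, minus strand, chr11:53618666-53618915 for Il4 and chr11:53634703-53634952 for Il13.
Il4: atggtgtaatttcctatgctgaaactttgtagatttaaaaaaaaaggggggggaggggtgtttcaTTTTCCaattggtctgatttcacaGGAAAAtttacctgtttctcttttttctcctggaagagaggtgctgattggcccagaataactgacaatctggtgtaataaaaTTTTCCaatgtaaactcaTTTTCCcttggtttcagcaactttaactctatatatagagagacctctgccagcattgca
Il13: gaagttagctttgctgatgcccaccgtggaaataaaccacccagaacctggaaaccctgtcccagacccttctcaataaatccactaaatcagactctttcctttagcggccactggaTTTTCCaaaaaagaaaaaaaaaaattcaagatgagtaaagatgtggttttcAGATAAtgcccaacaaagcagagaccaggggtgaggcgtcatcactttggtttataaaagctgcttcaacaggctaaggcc
The GATA words searched, on both strands, were AGATAA, its variant with a final G, which is AGATAG, and the pair of words that begin with T instead, of which the first is TGATAA and the last is TGATAG. The Il4 window held 4 GGAAAA matches and no GATA word. The Il13 window held 1 GGAAAA match and 1 AGATAA match, whose first base lay at -81 from the start. Over 32851 mouse promoter windows of the same length, 20.4% held at least 1 GGAAAA and 26.5% at least 1 of the 4 GATA words. A match describes these letters, and whether it is a bound site was not tested. The share of windows with as many as 4 GGAAAA matches was not computed. Of the other members, Zbtb7b had 1 GGAAAA match and Gata3 had none of these words. Their windows, chr3:89393379-89393628 and chr2:9878601-9878850, lie inside the gene spans given above. Of the 2 starts listed for Il4 and for Zbtb7b, 1 each was searched, so the counts hold for the searched start only.

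After cells with 800 to 4000 genes and at most 6% mitochondrial UMIs were kept, 8075 hepatic and 4351 thymic cells remained, with a median of 2741 and 3271 UMIs per cell. The 2 libraries had 56 barcodes in common among these cells. Cells of both libraries were clustered together without the 5 genes and most other pathway genes named here, so that no cluster was built on those. Sox4, Il7r and Il17a, pathway genes that are also markers of the study's populations, were not left out. Clusters were called by the marker genes of these populations. Hepatic C4-like cells (2647) were led by Socs2 and Cd40lg, C5-like cells (2982) by Ccl4 and Tyrobp, C7-like cells (276) by Klra7 and Klrg1, and C8-like cells (105) by the myeloid genes Lyz2 and Apoe. C6-like cells (791 hepatic, 164 thymic) were led by Il17a, and both clusters of C1-like cells (2409 thymic) had Hes1 among their leading genes. Clusters that did not pass the naming rule keep a number. Cluster 3 (1079 hepatic, 180 thymic) was led by Ly6c2 and Dapl1, cluster 5 (55 hepatic, 1050 thymic) by S1pr1 and Cd200, cluster 7 (49 hepatic, 532 thymic) by cell cycle genes and cluster 10 (72 hepatic) by interferon-induced genes. A UMI of Cd3d, Cd3e, Cd3g or Cd247 was found in 301 of 301 hepatic C4-like cells with an Il4 UMI and in 30 of 30 thymic cells with one. These counts cannot set such cells apart, because all cells were sorted as CD3e+ and the 4 genes are abundant. They summed to 3819 CPM over all C4-like cells and to 909 CPM even in C8-like cells.

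Zbtb16 was highest in thymic cluster 3 and in the C6-like cells of both tissues, with hepatic C4-like cells behind them. Levels are the gene's UMIs over all UMIs of the group, scaled to CPM. Thymic cluster 3 stood at 121.8 (95.1 to 153.6) CPM, hepatic C6-like cells at 65.3 (55.7 to 76.2), thymic C6-like cells at 45.8 (28.7 to 69.3) and hepatic C4-like cells at 28.5 (24.8 to 32.5). Thymic cluster 3 was the only group whose interval was apart from that of the next group down, and the 13 groups below it formed a chain of overlapping intervals. Hepatic C5-like cells held 7.67 (5.92 to 9.78) CPM, and thymic C1-like cells 4.24 (2.97 to 5.87). The level in C4-like cells was 3.71 (2.803 to 4.98) times that in C5-like cells, a comparison in which 0.907% of the 8816 genes with at least 50 UMIs were at least 2-fold higher and 0.964% at least 2-fold lower (2-fold ratios are counted here on CPM + 10). Zbtb16 was among the higher genes, but this contrast chose it. The summed UMIs behind these values were few: 508 in hepatic and 230 in thymic cells.

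Zbtb7b was in large part a hepatic transcript, with 463 UMIs in the hepatic and 16 in the thymic cells kept. The C4-like level was 28.4 (24.7 to 32.4) CPM, beside 26.5 (20.5 to 33.7) in hepatic C6-like cells, 13.6 (11.2 to 16.3) in C5-like cells and 8.76 (5.95 to 12.4) in hepatic cluster 3. C8-like cells, which carry myeloid transcripts, held 34.0 (18.6 to 57.0) CPM, so that C4-like cells did not stand apart in this gene. C4-like cells had 2.09 (1.66 to 2.64) times the C5-like level, which was under 2-fold on CPM + 10. In thymic C1-like cells 1 UMI was counted among 2409 cells, a level of 0.118 (0.00298 to 0.656) CPM. Of the 16 thymic cells with a Zbtb7b UMI, 7 were C6-like and 3 lay in cluster 3.

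Gata3 followed another order and was highest in immature thymic cells. Thymic C1-like cells held 378 (365 to 391) CPM, thymic cluster 7 held 209 (195 to 224) and thymic cluster 5 held 156 (143 to 170), and these 3 groups were apart from each other and from every group below. Hepatic C4-like cells followed at 114 (106 to 122), overlapping with hepatic C6-like cells at 109 (96.5 to 123) and thymic C6-like cells at 104 (77.2 to 137). C5-like cells were lower, at 79.3 (73.4 to 85.5). C8-like cells had the lowest level, 9.70 (2.64 to 24.8), from 4 UMIs. Within C1-like cells, the cluster led by Lars2 and Slc35d1 held 435 (412 to 459) CPM and that led by Cpa3 and Igfbp4 held 346 (331 to 362).

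**Figure D1:**
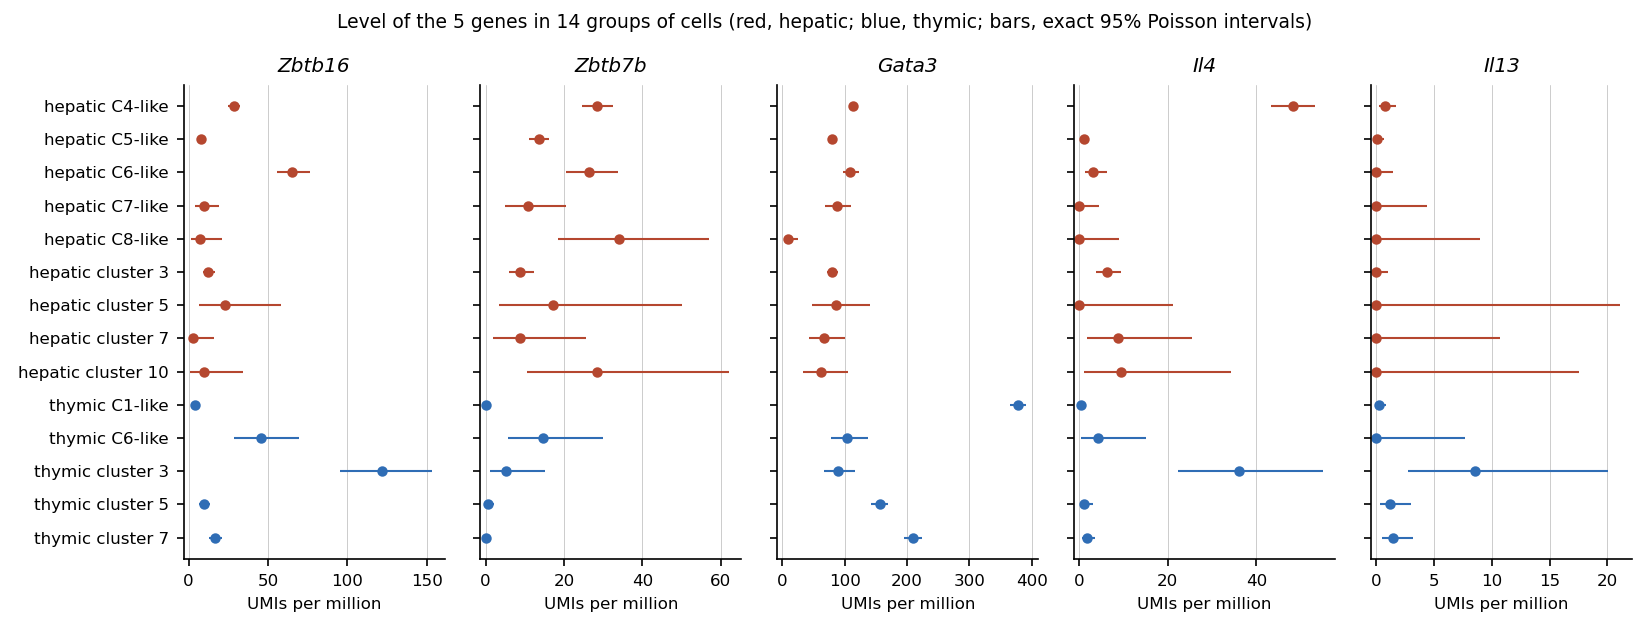
Level of each gene (CPM, horizontal axes, a different scale in each panel) in 9 hepatic groups (red) and 5 thymic groups (blue), with exact 95% Poisson intervals. Zbtb16 peaks in thymic cluster 3 at 121.8 and Gata3 in thymic C1-like cells at 378. Il4 is highest in hepatic C4-like cells at 48.2, with an interval that overlaps that of thymic cluster 3 at 36.0 (22.3 to 55.1).

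Il4 was highest in 2 groups of cells, hepatic C4-like cells and thymic cluster 3. Hepatic C4-like cells held 48.2 (43.4 to 53.4) CPM and thymic cluster 3 held 36.0 (22.3 to 55.1), and these 2 intervals overlapped. Hepatic cluster 10 came next at 9.51 (1.15 to 34.4) from 2 UMIs and hepatic cluster 7 at 8.72 (1.80 to 25.5) from 3, and both intervals overlapped that of thymic cluster 3. Hepatic cluster 3 stood at 6.22 (3.90 to 9.42) CPM, but 11 of its 22 UMIs came from 1 cell with no Zbtb16 and no Gata3 UMI, and without that cell the level was 3.12 (1.56 to 5.57). Hepatic C6-like cells were at 3.21 (1.38 to 6.32), C5-like cells at 1.06 (0.486 to 2.02) and thymic C1-like cells at 0.353 (0.073 to 1.03). The C4-like level was 45.4 (23.6 to 100.01) times the C5-like level. Of the 334 hepatic cells with an Il4 UMI, 301 were C4-like, and of the 30 thymic ones 15 lay in cluster 3, 6 in cluster 7, 4 in cluster 5, 3 among C1-like and 2 among C6-like cells.

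Il13 was at the edge of detection, with 7 UMIs in hepatic and 17 in thymic cells. Thymic cluster 3 held 5 of them, 8.57 (2.78 to 20.01) CPM, followed by thymic cluster 7 at 1.48 (0.545 to 3.23) and hepatic C4-like cells at 0.788 (0.289 to 1.71). In hepatic C6-like cells no Il13 UMI was found, which allows up to 1.20 CPM (a floor of 3 counts, where the exact interval reaches 1.48). Each interval overlapped the next in order, so these few UMIs did not part neighbouring groups. The interval of thymic cluster 3 did lie above those of hepatic C4-like cells, hepatic cluster 3 (0 to 1.04) and C5-like cells (0.003 to 0.657).

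To set groups of different depth side by side, each cell was thinned to 1500 UMIs. An Il4 UMI was then found in 6.31% (5.41% to 7.30%) of hepatic C4-like cells and 3.89% (1.58% to 7.85%) of thymic cluster 3, against 0.201% (0.074% to 0.438%) of C5-like cells and 0.042% (0.001% to 0.231%) of thymic C1-like cells. Without thinning these shares were 11.4%, 8.33%, 0.268% and 0.125%, at median depths of 2714, 3086, 2694 and 3184 UMIs. C8-like cells, a myeloid-gene group that should lack Il4, had 0 of 105 cells with an Il4 UMI, which allows a share of up to 2.86% (a floor of 3 counts, where the exact interval reaches 3.45%). The share in C4-like cells was thus above that in the other hepatic effector cells of like depth.

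A Zbtb16 UMI was found after thinning in 10.0% (6.04% to 15.3%) of thymic cluster 3, 8.85% (6.96% to 11.05%) of hepatic C6-like, 6.10% (2.96% to 10.9%) of thymic C6-like and 3.97% (3.26% to 4.78%) of hepatic C4-like cells. C5-like cells had one in 1.11% (0.763% to 1.55%), and C8-like cells in 0.952% (0.024% to 5.19%). The unthinned shares were 22.2%, 17.8%, 11.6%, 7.71%, 2.01% and 2.86%. Zbtb7b was found in 4.38% (3.63% to 5.23%) of C4-like and 4.42% (3.10% to 6.10%) of hepatic C6-like cells after thinning. Gata3 was found in 43.2% (41.2% to 45.2%) of thymic C1-like cells and in 15.0% (13.7% to 16.4%) of hepatic C4-like cells.

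**Figure D2:**
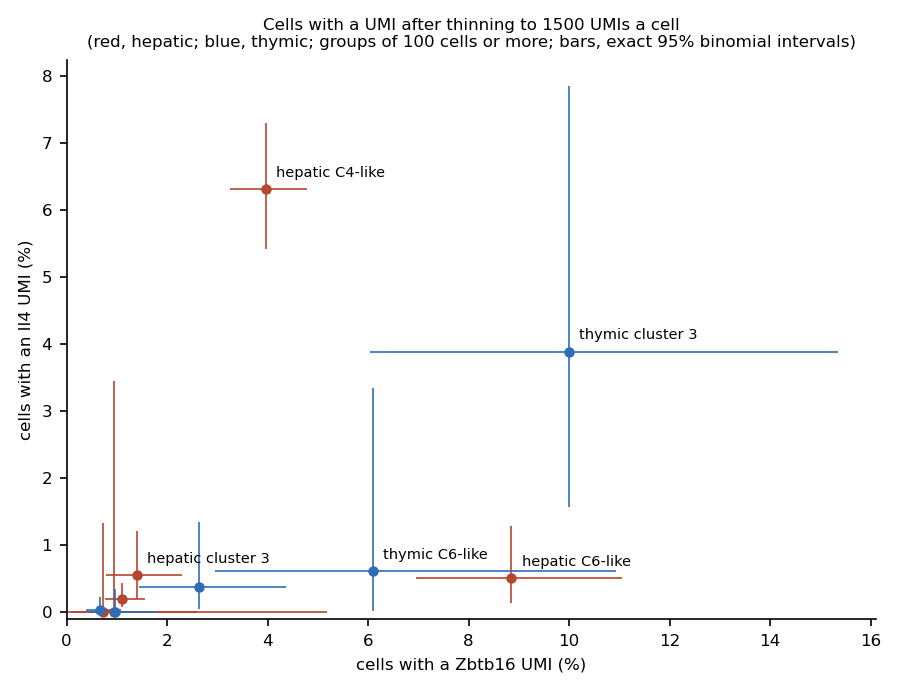
Share of cells with a Zbtb16 UMI (horizontal, percent) and with an Il4 UMI (vertical, percent) after thinning to 1500 UMIs a cell, for hepatic (red) and thymic (blue) groups of at least 100 cells, with exact 95% binomial intervals. Hepatic C6-like cells lie far right and low, at 8.85% and 0.506%, while hepatic C4-like cells lie higher, at 3.97% and 6.31%.

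Most C4-like cells with an Il4 or a Zbtb16 UMI had only 1. Of the 301 C4-like cells with Il4, 249 had 1 UMI, 42 had 2, 7 had 3, 2 had 4 and 1 had 5. For Zbtb16, 193 of 204 C4-like cells had 1 UMI. Thymic cluster 3 was different in this respect: 16 of its 40 Zbtb16-positive cells had at least 2 UMIs, with 7 cells at 2, 5 at 3, 2 at 4 and 2 at 5. A cell without a UMI therefore cannot be taken as a cell without the transcript, and the counts below compare cells in which a UMI was caught.

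Zbtb16 and Il4 were found in the same cell more often than their separate frequencies gave at equal depth. Within each group of at least 100 cells, cells were split into 10 strata by their UMI total, and the expected number of cells with both genes was summed from the frequencies in each stratum. In hepatic C4-like cells, 204 had a Zbtb16 UMI, 301 had an Il4 UMI and 38 (26.9 to 52.2) had both, where 24.7 were expected, a ratio of 1.54 (1.09 to 2.11). Put as plain shares, which are not set at equal depth, 18.6% of Zbtb16-positive and 10.8% of Zbtb16-negative C4-like cells had an Il4 UMI. The ratio was 1.76 (0.760 to 3.47) in the shallowest, 1.54 (0.739 to 2.83) in the middle and 1.48 (0.903 to 2.28) in the deepest of 3 equal parts of these cells, each interval reaching below 1. Cells with both genes had a median of 2994 UMIs, against 2714 in all C4-like cells, and 2 of the 38 were among the cells with the highest doublet scores.

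Other groups gave few such cells, and not all of them went the same way. Hepatic cluster 3 had 5 (1.62 to 11.7) cells with both genes where 0.408 were expected, out of 11 cells with Il4. Hepatic C6-like cells, with 141 Zbtb16-positive cells, had 0 where 1.80 were expected, which counting error allows (0 to 3.69). C5-like cells had 0. Summed over hepatic groups, 43 cells had both against 27.3 expected within groups, a ratio of 1.57 (1.14 to 2.12), and against 20.3 when groups were ignored.

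In the thymus the 2 genes met in 15 (8.40 to 24.7) cells, 50% of the 30 cells with an Il4 UMI. Within groups 6.53 were expected, a ratio of 2.30 (1.29 to 3.79), and without regard to groups 1.77. After thinning the ratio within groups was 2.44 (0.295 to 8.81), an interval that includes 1. Cluster 3 held 8 (3.45 to 15.8) of them against 4.67 expected, an interval that includes the expected number. Cluster 7, the cycling cells, held 4 (1.09 to 10.2) against 0.734 expected, cluster 5 held 2 and C6-like cells 1. A second thymic pair was Zbtb16 with Il13, found in 8 of the 15 Il13-positive cells against 2.23 expected within groups, a ratio of 3.59 (1.55 to 7.08). Zbtb7b met Il13 in 3 thymic cells against 0.205 expected, a ratio of 14.7 (3.02 to 42.9) that rests on these 3 cells. In no hepatic cell did Zbtb16 and Il13 meet, but only 7 hepatic cells had an Il13 UMI and 0.507 such cells were expected.

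Among the 10 pairs of members in C4-like cells, Gata3 with Il4 was the other pair whose interval left the expected number out. There 104 (85.0 to 126) cells had both against 77.5 expected, a ratio of 1.34 (1.10 to 1.63), but after thinning to 1500 UMIs a cell the ratio was 1.12 (0.743 to 1.62), an interval that includes 1. Zbtb7b met Il4 in 24 (15.4 to 35.7) cells against 24.8 expected, a ratio of 0.970 (0.621 to 1.44), which was 0.410 (0.0845 to 1.20) after thinning. Zbtb16 and Zbtb7b, both BTB zinc finger factors of γδ NKT cells, met in 20 (12.2 to 30.9) cells against 16.8. Zbtb16 and Gata3 met in 62 (47.5 to 79.5) against 52.0, and Zbtb7b and Gata3 in 54 (40.6 to 70.5) against 53.2. Il4 and Il13 met in 3 of the 6 Il13-positive C4-like cells against 0.798 expected, a ratio of 3.76 (0.776 to 10.99).

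**Figure D3:**
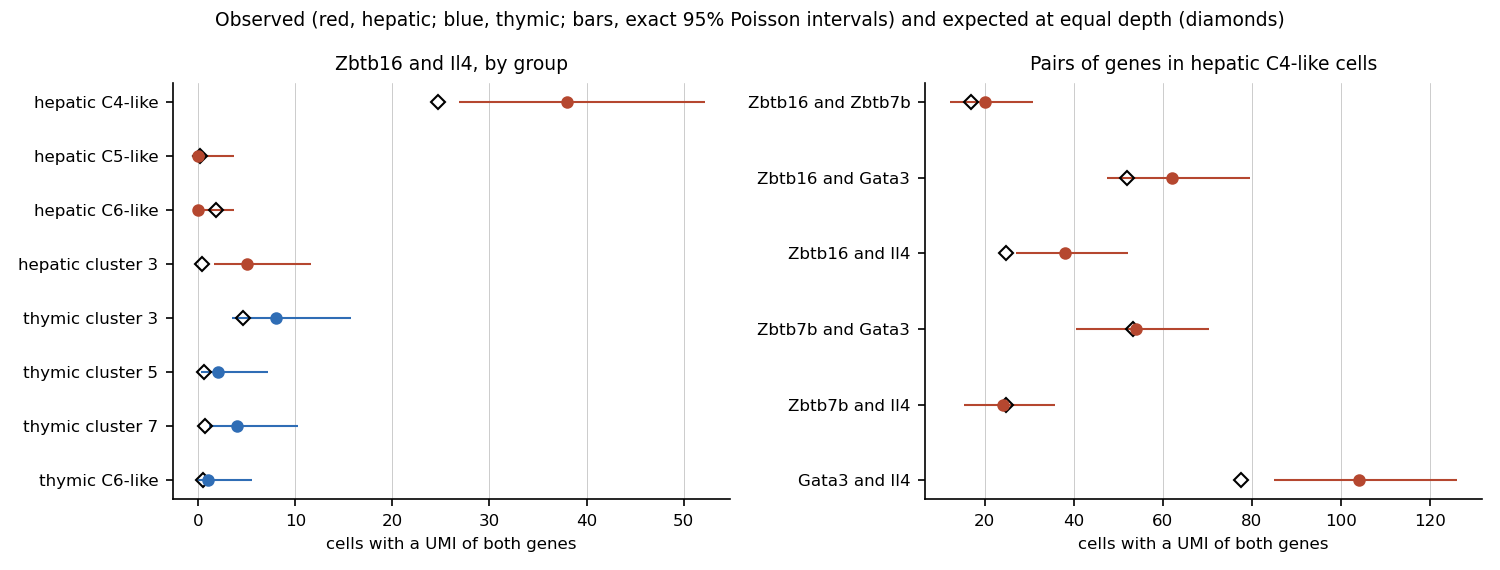
Number of cells with a UMI of both genes (points with exact 95% Poisson intervals, red hepatic, blue thymic) and the number expected at equal depth (diamonds), for Zbtb16 and Il4 by group (left) and for 6 pairs of genes in hepatic C4-like cells (right). In C4-like cells the interval lies above the diamond for Zbtb16 with Il4 (38 against 24.7) and for Gata3 with Il4 (104 against 77.5), and spans it for Zbtb7b with Il4 (24 against 24.8). After thinning, the Gata3 with Il4 ratio of 1.12 has an interval that includes 1.

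C4-like cells with an Il4 UMI were next compared with the 2346 C4-like cells without one, as UMIs against those expected at the same depth. Gata3 was at 148 CPM against 105, a ratio of 1.40 (1.16 to 1.69). Zbtb16 was at 40.6 against 26.8, a ratio of 1.52 (1.04 to 2.16). Zbtb7b was at 28.9 against 27.9, a ratio of 1.04 (0.665 to 1.56), so a difference of up to 1.56-fold was within counting error. Over 7476 genes, 0.0268% were at least 2-fold higher on CPM + 10 in the cells with Il4 and 0.241% at least 2-fold lower, and none of the 3 factors was among them.

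The genes with the largest ratios (ranked on CPM + 10, with plain ratios given) were Lmo4, a LIM-domain transcriptional cofactor, at 2.41 (158 against 65.8 CPM), Bcl2a1d, an antiapoptotic Bcl2 relative, at 2.39, the costimulatory receptor gene Icos at 2.09 (220 against 105 CPM), Ly6a at 2.01 and the cytokine signalling suppressor gene Socs2 at 1.89. The lowest ratios were those of the NK receptor genes Klra5, at 0.208, and Klre1, at 0.317, with Cd8a at 0.259 (32.1 against 124 CPM), Anxa2 at 0.356 and the Fc receptor chain gene Fcer1g at 0.408. C4-like cells with Il4 thus held less of these NK receptor transcripts than the C4-like cells around them. The same C4-like cells split by Zbtb16 gave less extreme ratios in a part of these genes: 1.85 for Icos, 1.68 for Lmo4 and 1.498 for Ly6a, and 0.507 for Cd8a and 0.563 for Klre1. The other genes, Bcl2a1d, Socs2, Klra5, Anxa2 and Fcer1g, are not given for this split. All of these genes had been picked as the extremes of the Il4 split. These 2 splits share 38 of their positive cells, so they do not stand for each other. In the Zbtb16 split, 0.0% of genes were at least 2-fold higher and 0.0535% at least 2-fold lower.

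The other genes of the pathway were counted in 8 lists, of those members with at least 50 UMIs, and log2 ratios are on CPM + 10 (the median over all genes tested was -0.01). Of 13 regulators known to favour Il4 or Gata3, 12 were counted, none passed 2-fold and 6 were above 0, with a median of -0.02 and a range from Batf at -0.17 to Gfi1 at 0.46. Maf, an activator of Il4, was at 79.1 against 88.1 CPM, a ratio of 0.898 (0.696 to 1.14). Of 8 regulators that restrain Il4 or Zbtb7b, 5 were counted with a median of -0.22, Runx3 at -0.28 and Runx1 at 0.39. No regulator on either list reached 2-fold.

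Of 10 signals that act upstream of PLZF in NKT cells, 8 were counted, with a median of 0.13. Of these, 5 were above 0 and none passed 2-fold on CPM + 10. SLAM family receptors and their adaptor feed into PLZF induction. In this list Slamf6 was highest, at 28.9 against 12.4 CPM, a plain ratio of 2.33 (1.45 to 3.64). Slamf1 and the adaptor gene Sh2d1a are not given for this split. Egr1, an immediate response gene of T cell receptor signalling, was at 126 against 75.6 CPM, a ratio of 1.67 (1.35 to 2.04). Id3, an inhibitor of E proteins, was lowest, at 8.55 against 19.8 CPM. Among surface genes of PLZF-positive innate T cells, 7 of 8 were counted with a median of 0.22, from Cd160 at -1.003 (393 against 798 CPM) to Icos at 0.999, and 1 passed 2-fold, downwards. Of these 7 genes 5 were above 0. Among the 5, Il18r1 was at 1.41 (1.08 to 1.83) times its level in cells without Il4 and Cd44 at 1.29 (1.09 to 1.53), both named after their values were seen.

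Of 17 other BTB zinc finger genes, 12 were counted, with a median of 0.13, Patz1 at 0.46 and Zbtb17 at -0.56, and none passed 2-fold. Of the cytokines of other effector types 4 of 7 were counted, from Il2 at -0.40 to Tnf at 0.28, and Ifng, the type-1 cytokine, was at 1173 against 1014 CPM, a ratio of 1.16 (1.08 to 1.23). C4-like cells with Il4 thus held Ifng transcripts as well. Of the receptors of type-2 cells, Il2rg (0.28) and Il4ra (-0.22) were the 2 counted. Other type-2 cytokines were not counted there, and over all cells kept Il5 and Il9 had no UMI in either tissue. Il3 had 2 hepatic and 3 thymic UMIs. Areg, an epidermal growth factor relative made by type-2 cells among others, had its highest level in hepatic C6-like cells, 69.4 (59.4 to 80.5) CPM, against 0.263 (0.032 to 0.948) in C4-like cells.

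**Figure D4:**
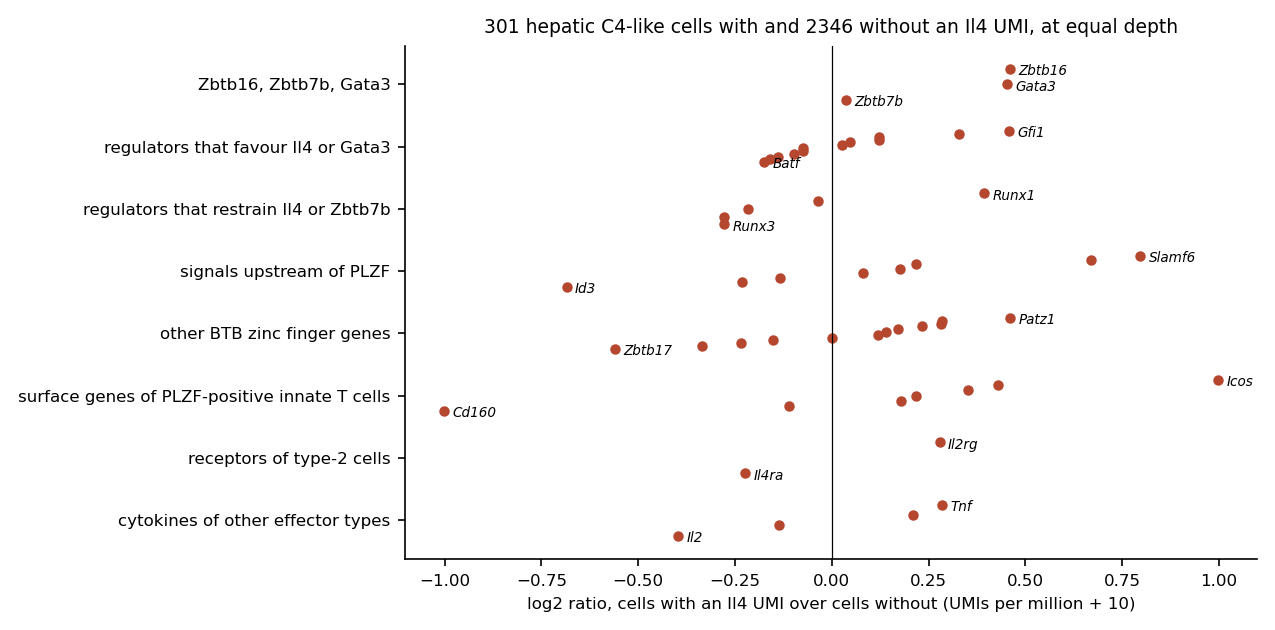
Log2 ratio of CPM + 10 between 301 hepatic C4-like cells with an Il4 UMI and 2346 without, at equal depth, for 3 of the genes followed and for the genes of 7 pathway lists with at least 50 UMIs (points), with the extremes of each list named. Zbtb16 (0.46) and Gata3 (0.45) lie right of 0, Zbtb7b (0.04) near it, and Icos (0.999) and Cd160 (-1.003) at the edges.

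Markers of other Il4-producing cells were looked for in the same cells. In the 301 C4-like cells with Il4, the 7 basophil and mast cell genes summed to 2 UMIs with 6 of the 7 at 0. These genes summed to 2.84 CPM in the cells without Il4 and to 2.76 CPM over all C4-like cells, so the cells with Il4 were not shown to hold less. Of the 6 genes of group 2 innate lymphoid cells that are not among the genes followed, 4 were at 0. Over all C4-like cells Il5 and Ptgdr2 also had 0 UMIs, Il1rl1 and Areg 2 each and Il17rb 5. These zeros therefore cannot set the cells with Il4 apart. The summed level was 231 CPM against 142, of which Rora, a gene also expressed in other T cells, made up 227 against 140 CPM at equal depth. The B cell list summed to 4 UMIs in the cells with Il4, too few for a comparison, and the 8 myeloid genes to 177 against 172 CPM. The part of these cell types in the result was not tested beyond these sums. The CD4 and CD8 coreceptor genes summed to 39.6 CPM in cells with Il4 and 123 CPM in cells without. Unlike the Cd8a values above, these sums were not set at equal depth. Most of the sum was Cd8a, at 105 CPM over all C4-like cells, beside 4.86 for Cd8b1 and 3.02 for Cd4 (23 UMIs). The sum therefore does not show a difference in Cd4.

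Thymic cluster 3 was examined in the same way, split by Zbtb16 into 40 cells with a UMI and 140 without. The largest ratios belonged to Icos, at 4.01 (2.69 to 5.98), Izumo1r, the folate receptor 4 gene, at 3.09 (2.21 to 4.32), Plac8 at 3.05, Bcl2a1d at 2.85 and the phosphatase gene Dusp10 at 2.801. The lowest were Bcl2 at 0.049 (2 UMIs against 41.0 expected), Tyrobp at 0.090, Itgb1 at 0.096, Ly6c2 at 0.121 (139 against 1149 CPM) and the chemokine gene Ccl5 at 0.132. Of 1267 genes, 1.66% were at least 2-fold higher and 3.24% at least 2-fold lower. Ly6c2, the gene that led cluster 3 as a whole, was thus low in its Zbtb16-positive thymic cells, which stood apart from the cells they were clustered with. Il4 was at 66.2 against 24.3 CPM in this split, a ratio of 2.73 (1.04 to 7.07), and Gata3 at 99.3 against 91.7, a ratio of 1.08 (0.552 to 2.02).

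Cycling thymic cells (cluster 7) gave 50 Zbtb16-positive and 482 negative cells. Fcer1g was at 148 against 6.91 CPM, a ratio of 21.4 (13.1 to 35.9), Nrgn at 5.08, S100a6 at 3.86, Cd7 at 3.65 and Izumo1r at 3.04. Lower were Gzma, at 0.229, with Dntt, which encodes terminal deoxynucleotidyl transferase, at 0.270, Endou at 0.322, Sox13, a factor of γδ T progenitors, at 0.357 and the Notch target Hes1 at 0.379. Here 0.662% of 6197 genes were at least 2-fold higher and 0.742% at least 2-fold lower. Both thymic splits therefore had Izumo1r on the high side, while Icos, with 29 UMIs in cluster 7, was too rare there to be ranked. In hepatic C6-like cells, where Zbtb16 was high and Il4 low, Zbtb16-positive cells were set against 650 negative ones: Stmn2 was at 4.13 (2.89 to 5.88) and Xcl1 lowest at 0.373, with 0.0648% of genes at least 2-fold higher and 0.367% at least 2-fold lower.

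Cells of the same cluster could be set side by side across tissues for cluster 3 and for C6-like cells. Zbtb16 in hepatic cluster 3 was at 0.0998 (0.0667 to 0.148) of its thymic level, 12.2 against 121.8 CPM, and Il4 at 0.173 (0.0906 to 0.330). The thymic level rested on few cells: of its 71 Zbtb16 UMIs 24 came from cells with 1 UMI each and the others from 16 of 180 cells, and the Zbtb16-positive cells were low in Ly6c2, as given above. Gata3 was at 0.897 (0.666 to 1.23) of the thymic level and Zbtb7b at 1.70 (0.531 to 8.71). In this comparison 1.61% of 5657 genes were at least 2-fold lower in the hepatic cells and 2.25% at least 2-fold higher, and Zbtb16 and, among the list genes, Icos at 0.237 and Maf at 0.209 were among the lower ones, while Il4 (22 and 21 UMIs) had too few UMIs to be counted. In C6-like cells Zbtb16 was at 1.43 (0.911 to 2.34) and Zbtb7b at 1.82 (0.834 to 4.69) times the thymic level, and Gata3 at 1.05 (0.773 to 1.45), with each interval including 1. Without the cells of highest doublet score the Zbtb16 ratio was 1.62 (1.01 to 2.73). There 3.46% of 5110 genes were at least 2-fold higher and 0.822% at least 2-fold lower in hepatic cells.

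**Figure D5:**
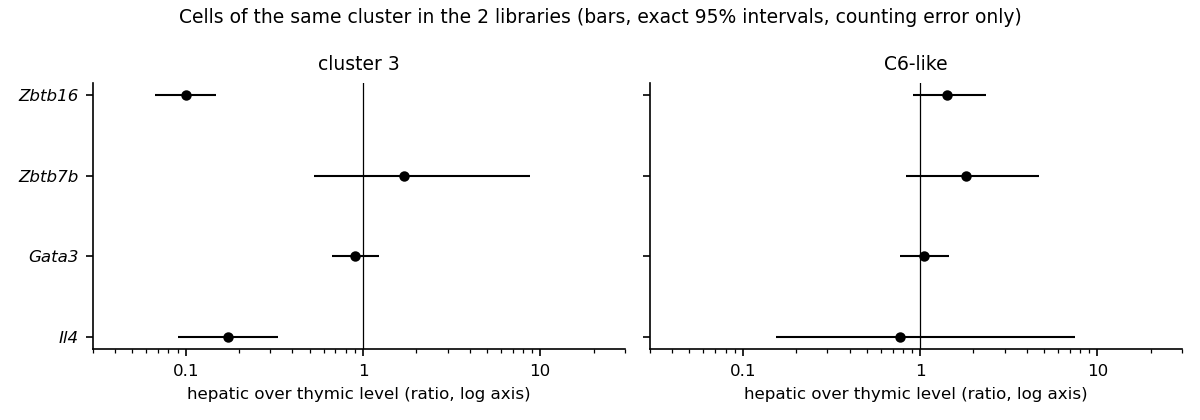
Ratio of hepatic to thymic level (log axis) of 4 genes in cluster 3 (left) and in C6-like cells (right), with exact 95% intervals for counting error. In cluster 3 Zbtb16 (0.0998) and Il4 (0.173) lie well left of 1 while Gata3 (0.897) spans it, and in C6-like cells the 4 intervals span 1.

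Over the 14 groups with at least 20 cells, the genes whose log2(CPM + 10) followed Zbtb16 most closely were Il7r (Pearson r = 0.79), Il18r1 (0.76), Icos (0.75), Jtb (0.74) and Mfng (0.69), out of 2424 genes. Il7r is also a marker used to name clusters and was not left out of the clustering that made these groups. Il4 itself had r = 0.51 with Zbtb16. The pattern of Il4 was followed by Cd40lg (0.90), Fam204a (0.70), Socs2 (0.66), Eef1d (0.62) and Icos (0.59). Icos was therefore on both lists and was also among the 5 largest ratios in the splits of C4-like cells and of thymic cluster 3. The list of surface genes that holds Icos did not rise as a whole in every Zbtb16 split. In thymic cluster 3, 2 of 6 genes counted were above 0 (median log2 ratio -0.42), as were 2 of 6 in hepatic C6-like cells (-0.31). In C4-like cells it was 4 of 7 (0.06), and in thymic cluster 7 it was 2 of 2 (1.37). Zbtb7b was followed by Gadd45g (0.93) and the immediate early genes Jun (0.92), Fos (0.92), Fosb (0.91) and Dusp1 (0.91). All of these were highest in a hepatic group, and Zbtb7b had 463 hepatic and 16 thymic UMIs. The part of tissue and library in these coefficients was not tested. Gata3 was followed by Trp53i11 (0.91) and Tespa1 (0.91). The groups share 2 libraries, so these coefficients describe these groups.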

How the data were processed

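Hepatic and thymic γδ T cells were profiled with a droplet 3′ single-cell kit, and per the labels the authors aligned reads to mm10 and counted UMIs with Cell Ranger (Seurat 3.0 is named for their later steps). The deposited counts are raw, unnormalised UMIs per gene and barcode: 25040963 UMIs in 8658 hepatic and 17371662 in 4541 thymic barcodes. The genes, lists and comparisons were chosen with earlier results of these data known.

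Cells with 800 to 4000 genes and at most 6% mitochondrial UMIs were kept. Both libraries were clustered together in Seurat 5.3.0 (R 4.3.3) with log normalisation, 2000 variable genes less 79 of the 82 pathway genes, 30 principal components and resolution 0.6, which gave 12 clusters. Sox4, Il7r and Il17a, which are also naming markers, were not left out. A cluster took the name of the study's population with the highest mean log2 ratio of its markers (at least 0.5, and 0.2 above the next), unless its 10 leading genes held more markers of another population or at least 2 of another cell type. Scrublet (in scanpy 1.11.5) called 4 hepatic and 2 thymic doublets, too few to be usable, and no doublet was removed. UMIs were summed over cells of a group and divided by its total. Intervals are exact (Clopper-Pearson for shares, Poisson for counts, conditional binomial for ratios), and no test between tissues was made since each has 1 library. Expected joint counts are sums over 10 depth strata of the product of both frequencies (1 stratum in groups under 100 cells). Named genes are the members, the extremes of each list, the 5 genes most like Zbtb16 and Il4 over groups, and the 5 largest ratios each way for cells with Il4 (genes of 50 UMIs or more that reach 100 CPM on the higher side); the same rule was applied to the further splits after the data were seen, and Maf, Il18r1, Cd44, Egr1, Il3, Areg, and the genes most like Zbtb7b and Gata3 were named after their values were seen. Both ratios were tested on simulated data, where the joint ratio stayed near 1 for independent genes and understated an added excess. No promoter is printed for Zbtb16.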

Additional observations from a re-analysis of the deposited data

How the results depend on the processing

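No paired analysis was possible because the result comes from no test and each tissue has 1 library. Of 237 values of 22 results under 14 other settings and 1 (leaving out a cell) added after seeing the data, 218 stayed within the interval of the reported value, 19 moved out of it and 0 reversed. Leaving mitochondrial and ribosomal-protein genes out of the total raises every level by construction: Zbtb16 to 196 CPM in thymic cluster 3, 91.7 in hepatic C6-like, 39.4 in C4-like cells and 9.92 among C5-like ones, Zbtb7b to 39.2 in C4-like cells and 17.6 among C5-like ones, Gata3 to 578 in thymic C1-like and 157 in hepatic C4-like cells, and Il4 to 66.6 in C4-like cells, 58.0 in thymic and 9.86 in hepatic cluster 3. Gata3 in C1-like cells was 361 with up to 10% mitochondrial UMIs and 398 as the mean of the cells' own CPM. Il4 was 43.3 in C4-like cells with no gene left out of the clustering, and in C5-like cells 0.395 with the naming markers also left out and 2.25 with at least 500 genes per cell, which also gave 3.28 in hepatic cluster 3. Without the cell with most Il4 UMIs hepatic cluster 3 was at 3.12. Where no construction shows it, the cause was not tested. The joint ratio of Zbtb16 and Il4 in C4-like cells ran from 1.53 to 1.96 over 12 alternatives, each interval above 1, and in the thymus from 2.10 to 3.52, with 1 interval including 1. After thinning to 1500 UMIs, Gata3 with Il4 was at 1.12, with an interval including 1, and Zbtb7b with Il4 at 0.410. Zbtb16 in hepatic over thymic cluster 3 stayed between 0.0952 and 0.113, and in C6-like cells between 1.41 and 1.62, with an interval above 1 when cells of highest doublet score were left out. With a median of 2741 (hepatic) and 3271 (thymic) UMIs per cell, a cell without a UMI may hold the transcript, so no share is a share of expressing cells.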
